A study of Mus musculus with 18 samples.

Results

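BMS753 and BMS641 were compared in F9 cells at matched times: 4 arrays of each compound, at 2, 6, 24 and 48 h, formed 4 pairs, 8 of the 18 arrays of the series. F9 is a mouse embryonal carcinoma line, an established model of early embryonic cells that differentiates when given retinoic acid. Per the labels, BMS753 is specific for the retinoic acid receptor RARα and BMS641 for RARβ, and both were given at 1 µM to cells grown on gelatine in medium with foetal calf serum. Reference groups were ethanol vehicle at 48 h (2 arrays), all-trans retinoic acid (ATRA, 1 µM) and the RARγ agonist BMS961 (0.1 µM), each of these retinoids with 1 array at 2, 6, 24 and 48 h. With 1 pair of compounds compared, no p-value was adjusted over pairs. The 4 comparisons made of this pair (all times, late, early, and late minus early) were each adjusted over genes, not over the comparisons. The compounds are known here by code names, without their structures. Each compound and time was 1 array, so a difference at a single time has no replicate and no test. Whether the pair of vehicle arrays stems from 1 culture or several is not given in the labels, so their spread may be technical.

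Retinoic acid receptors are nuclear receptors that sit on DNA with an RXR partner. A ligand that activates them swaps bound corepressors for coactivators and turns on nearby genes. Among the direct targets are genes that feed back on the pathway itself, such as Cyp26a1, whose enzyme degrades retinoic acid, and Rarb, which codes for RARβ. In embryonal carcinoma cells the same ligand leads to Hox gene activation and to endoderm-like differentiation over days.

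The promoters of these feedback genes are shown because both hold a DR5 element, the response element of RAR and RXR, and because the difference of the first was largest at 6 h and that of the second at 48 h. The element is a direct repeat of the receptor's recognition site with 5 bases between the copies, and capitals mark both copies. Each sequence is the 250 bases before the RefSeq start of the gene (GRCm38.p6), 5′ to 3′ along the gene. The Cyp26a1 window is chr19:37697558-37697807 on the plus strand, with the element 32 to 16 bases before the start and reading on the opposite strand. The Rarb window is chr14:16575477-16575726 on the minus strand, with the element 53 to 37 bases before the start and reading with the gene.
Cyp26a1: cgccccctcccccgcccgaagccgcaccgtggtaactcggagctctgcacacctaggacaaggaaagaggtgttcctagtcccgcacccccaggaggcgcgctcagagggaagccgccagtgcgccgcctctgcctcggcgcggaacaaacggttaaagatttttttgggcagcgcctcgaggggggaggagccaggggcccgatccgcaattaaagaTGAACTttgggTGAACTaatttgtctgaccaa
Rarb: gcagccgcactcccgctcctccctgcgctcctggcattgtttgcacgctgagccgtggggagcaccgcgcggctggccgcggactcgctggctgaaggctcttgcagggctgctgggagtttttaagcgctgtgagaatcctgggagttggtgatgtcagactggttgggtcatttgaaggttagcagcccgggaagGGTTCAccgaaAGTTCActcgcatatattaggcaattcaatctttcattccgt

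A search of both strands for DR5 found it in 32 of 32851 promoter windows of 300 bases, 50 of them after the start (0.0974%). Of the 19938 genes compared, 15563 had a window and 11 of these held the element (0.0707%). The other 9 genes with a DR5 had late differences between BMS753 and BMS641 of -0.18 to 0.21 on the log2 scale, and none of them was called. Of the 38 genes called late for the mean of 24 h and 48 h, 27 had a window and 1 of these, Rarb, held a DR5. The related DR2 element was in 88 windows (0.268%) and in 14 of the genes compared (0.09%), and in none of the 27. A match is a description of the letters and does not show binding.

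Levels are log2 values of 1 probe set per gene, and differences are BMS753 minus BMS641 on the log2 scale, where 1 is 2-fold. They can be compared between arrays for a gene, not between genes. The embryonal carcinoma markers fixed for the line were all measured (8 of 8). Their mean level was 11.37 to 11.46 on the BMS753 arrays and 11.43 to 11.44 on the BMS641 arrays. None of the 8 was called, and Pou5f1, the stem cell factor OCT4, differed by 0.00 late (95% interval -0.23 to 0.24). The 11 primitive and parietal endoderm markers averaged 6.53 to 6.91 with BMS753 and 6.46 to 6.54 with BMS641, against 7.17 and 6.39 on the vehicle arrays, with none called. Means of the visceral endoderm, mesoderm and trophoblast markers lay between 4.51 and 5.04 in these 8 arrays, those of the fibroblast markers between 5.63 and 6.22 and those of the neural markers between 6.79 and 7.17. No marker of any of these types was called.

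The vehicle arrays differed from each other more than the compounds did. Vehicle replicate 1 against replicate 2 put 665 genes at least 2-fold apart (3.34% of 19938), with a median absolute difference of 0.23, against 0.11 to 0.16 between BMS753 and BMS641 at the 4 times. Many genes that separate the compounds were also high, or low, in vehicle replicate 1, and the vehicle levels are therefore given gene by gene.

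The number of genes at least 2-fold apart grew at each step of the time course. At 2 h, 3 genes were higher with BMS753 (0.015%) and 5 lower (0.0251%). At 6 h, 22 were higher (0.11%) and 9 lower (0.0451%). At 24 h, 42 were higher (0.211%) and 15 lower (0.0752%). At 48 h, 88 were higher (0.441%) and 48 lower (0.241%). These are counts between 2 arrays at each time, with no replicate check. Higher genes outnumbered lower ones from 6 h on.

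**Figure D1:**
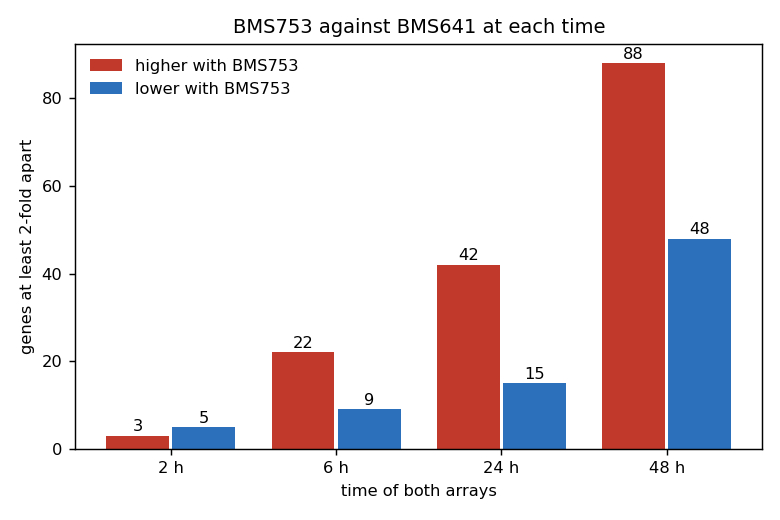
Number of genes (y axis) at least 2-fold higher (red) or lower (blue) with BMS753 than with BMS641 at each time (x axis), out of 19938 genes and with 1 array per compound and time. Both counts are highest at 48 h, with 88 higher and 48 lower.

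Most genes past 2-fold at 24 h were also past it at 48 h, but most of those at 48 h were not past it at 24 h. Of the 42 genes higher at 24 h, 33 were also at least 2-fold higher at 48 h (78.6% of the 24 h genes and 37.5% of the 48 h genes). Of the 15 lower at 24 h, 12 were lower at 48 h (80% and 25%). The differences of all genes at 24 h and 48 h had a Pearson correlation of 0.524. At 2 h and 6 h it was -0.378, and the 2 h differences correlated with the mean level of a gene at -0.255 and the 6 h differences at 0.289. These are correlations across genes, which are not independent replicates. Whether the arrays of a pair were processed together is not known here.

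The 3 genes past 2-fold higher at 2 h were Cyp26a1, Aqp3 and Prp2, with differences of 1.62, 1.39 and 1.05. Prp2 turned to -1.07 at 6 h. The 5 genes lower at 2 h were Nudt11 (-1.34), Mpped2 (-1.21), Mrpl42 (-1.15), Mir363 (-1.06) and Zfp931 (-1.04), and Zfp931 was 1.89 higher and Mir363 1.47 higher at 6 h. At 6 h the highest were Stra8 (2.40), Cyp26a1 (2.14) and Zfp931 (1.89), and the lowest were n-R5s136 (-1.46), Krtap10-10 (-1.20) and Olfr767 (-1.16). At 24 h the highest were Stra8 (3.37), Aqp3 (3.16) and Rarb (2.13), and the lowest Fst (-1.35), Trh (-1.32) and Vrtn (-1.28). At 48 h the highest were Calcoco2 (3.86), Stra8 (3.82) and Aqp3 (3.34), and the lowest Nefl (-1.92), Gna14 (-1.87) and Dnmt3l (-1.84). Members of the retinoid target list were among the 3 highest genes at every time. That list was written with earlier results of these data known, so their rank describes the genes and supports nothing. None of the 3 lowest genes at 2 h or at 6 h was among the 3 lowest at 24 h or 48 h.

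Each compound was also set against the vehicle arrays, counting genes at least 2-fold beyond both of them. BMS753 gave 5 genes at 2 h (0.0251%), 5 at 6 h (0.0251%), 24 at 24 h (0.12%) and 65 at 48 h (0.326%). BMS641 gave 0 genes at 2 h (0%), 3 at 6 h (0.015%), 1 at 24 h (0.00502%) and 2 at 48 h (0.01%). Where the vehicle arrays lay far apart, a gene had to pass the further of them, so these counts can miss changes in such genes. The vehicle arrays were at 48 h, so the earlier arrays differed from them in time as well, and these counts have no replicate check. With BMS753 at 2 h the genes were Cyp26a1 above vehicle and Fst, H2ac4, Otx2 and Plag1 below it, and at 6 h Cyp26a1, Cpne5, Itga3 and Lgals9 above and Otx2 below. The BMS753 genes below vehicle at 24 h were Dusp4, Fst, Ly6g6e, Otx2 and Trh.

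With BMS641 the genes past 2-fold from both vehicle arrays were Cfap300, Mir363 and Rpl34, all below vehicle at 6 h, then Ccnd2 at 24 h and 48 h, and Otx2 at 48 h. All genes of these short counts are named whatever the naming rule gave, so they were chosen after their values were seen. Ccnd2, which codes for cyclin D2 of the G1 phase, stood at 9.63 at 24 h and 9.78 at 48 h with BMS641, against 7.71 and 8.53 with vehicle. With BMS753 Ccnd2 was higher still, 1.35-fold above BMS641 at 24 h and 1.19-fold at 48 h. Its late difference between the compounds was 0.35 (95% interval -0.67 to 1.36) and was not called. Otx2, a homeobox gene of the epiblast, was below vehicle with both compounds. It stood at 8.10 with BMS641 at 48 h against 9.63 and 9.46 with vehicle, and lower still, at 7.12, with BMS753.

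The paired test over all 4 times asked for which genes the mean of the 4 paired differences departed from 0. No gene was called (0% of 19938; limma with time as a block, lowest adjusted p = 0.157), while 1340 genes had an unadjusted p under 0.05 (6.72%), 636 of them higher with BMS753 and 704 lower. An exact two-sided sign permutation test cannot reach 0.05 with 4 pairs: its smallest p is 2 of 16 sign patterns. Any gene with the same sign in 4 of 4 pairs gets that smallest value, and 13.7% of all genes had such signs. The test was run only for Cyp26a1, Aqp3, Dusp9, Pmepa1, Otx2 and Fst, which all had such signs. Their value was therefore fixed by their signs and supports nothing. The spread in the paired test includes real change of a difference with time, because the 4 times are not replicates.

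Cyp26a1 had the largest difference of all genes at 2 h. Its level with BMS753 was 6.56, 7.00, 6.16 and 5.57 at 2, 6, 24 and 48 h. With BMS641 it was 4.94, 4.86, 4.78 and 4.87, and with vehicle 5.05 and 4.85. All 4 BMS753 arrays lay above all BMS641 and vehicle arrays, and the BMS641 arrays lay around the vehicle values. The differences of 1.62, 2.14, 1.38 and 0.70 were largest at 6 h and smallest at 48 h. Their mean was 1.46 ± 0.20 (SE; 95% interval 0.99 to 1.93, limma adjusted p = 0.168), and it was not called. Cyp26a1 was far higher with the other retinoids, at 10.06 to 12.01 with ATRA and 8.04 to 9.14 with BMS961.

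Rarb showed the opposite time course. Its level with BMS753 was 5.22, 5.90, 7.05 and 7.82 at the 4 times, and with BMS641 it was 4.92, 5.03, 4.92 and 4.97. The differences grew from 0.29 and 0.88 to 2.13 and 2.84, while the BMS641 arrays stayed within 0.11 of each other. Vehicle replicate 1 was at 5.79 and replicate 2 at 4.45, so the BMS641 arrays fell between them and the late BMS753 arrays above both. At 48 h Rarb was at 8.52 with BMS961 and 9.27 with ATRA.

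**Figure D2:**
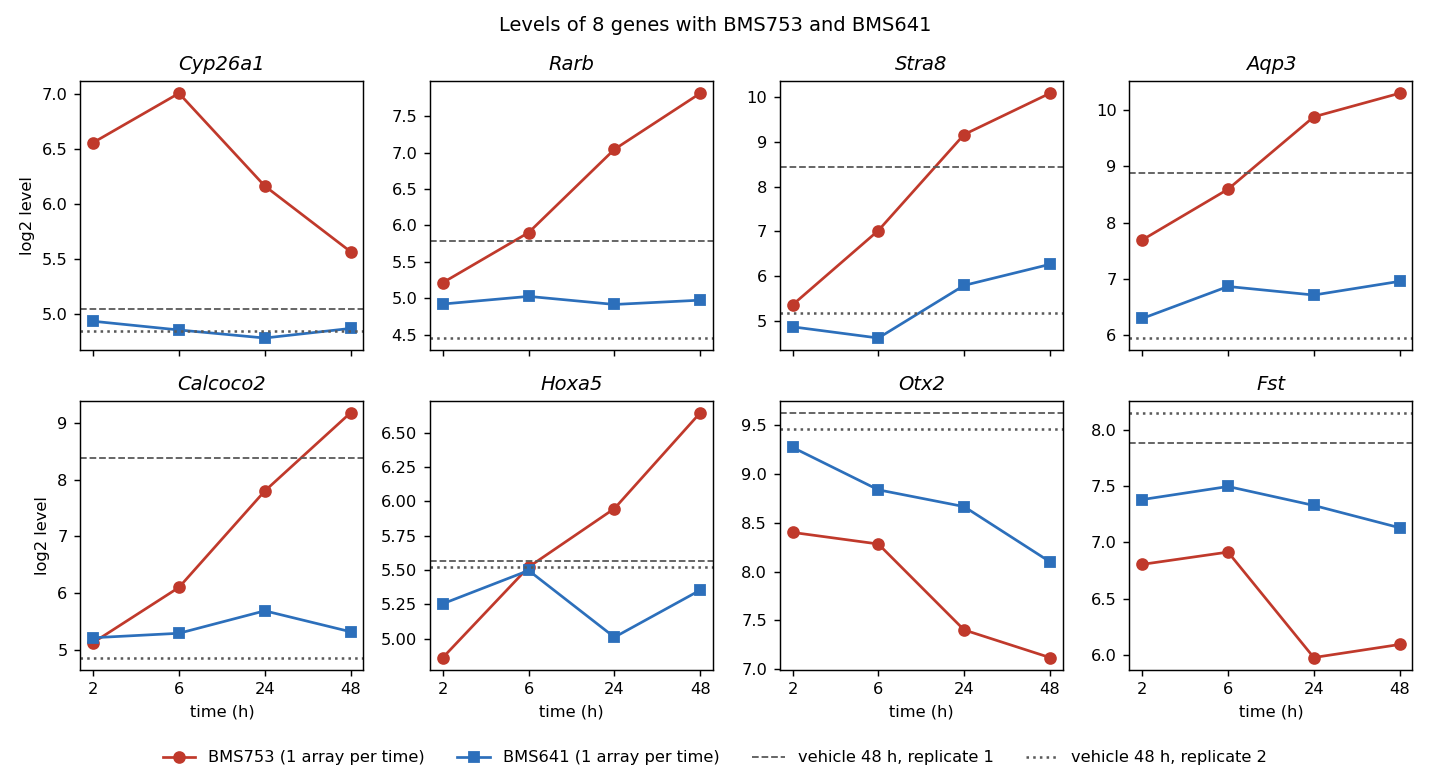
Log2 level (y axis) of 8 genes at 2, 6, 24 and 48 h (x axis, evenly spaced) with BMS753 (red circles) and BMS641 (blue squares), 1 array per point; the dashed and dotted lines are the vehicle arrays at 48 h. Cyp26a1 separates at 2 h and narrows to 0.70 at 48 h, whereas Rarb, Stra8 and Calcoco2 separate with time, and vehicle replicate 1 lies high for Stra8, Aqp3 and Calcoco2.

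Aqp3, a channel for water and glycerol, was higher with BMS753 at every time. Its level with BMS753 was 7.69, 8.59, 9.88 and 10.30, and with BMS641 6.30, 6.87, 6.72 and 6.96. The mean difference over the 4 times was 2.40 ± 0.32 (limma adjusted p = 0.160). Vehicle replicate 1 was at 8.88 and replicate 2 at 5.95, so the BMS641 arrays lay between the vehicle arrays. The other genes named from the paired test, none of them called, were Dusp9 (1.32 ± 0.15), a phosphatase of ERK, the receptor tyrosine kinase Kit (1.14 ± 0.14) and Enpp4 (1.098 ± 0.14) on the higher side.

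On the lower side were Otx2 (-0.92 ± 0.11), Fst (-0.89 ± 0.14) and the ephrin Efnb2 (-0.85 ± 0.13), again not called, with adjusted p of 0.157, 0.230 and 0.230. Otx2 with BMS753 was 8.40, 8.28, 7.40 and 7.12. With BMS641 it was 9.27, 8.84, 8.67 and 8.10, so the BMS753 array was lower at each time and both series were lower at 48 h than at 2 h. The gap was there at 2 h (-0.87) and was -0.98 at 48 h. Vehicle replicates 1 and 2 were close for Otx2, at 9.63 and 9.46.

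The late comparison averaged the 24 h and 48 h differences, with the spread taken from all 16 retinoid arrays. It called 30 genes higher with BMS753 (0.15% of 19938) and 8 lower (0.0401%), and 35 of the 38 were at least 2-fold apart (limma, Benjamini-Hochberg adjusted p under 0.05; lowest 0.00361). Pbx2, Rbks and Cdk6 were the called genes under 2-fold. The spread behind these p-values is how far the times within a phase, 2 h and 6 h as well as 24 h and 48 h, depart from each other by retinoid, not the spread between repeated cultures. The number called depended on the arrays in the fit: it was 170 with the 12 BMS arrays, 63 with the 8 arrays of the comparison, 6 without the 2 h pair, 6 without the 6 h pair, 1 without the 24 h pair and 0 without the 48 h pair. Rarb was the 1 gene called without the 24 h pair.

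**Figure D3:**
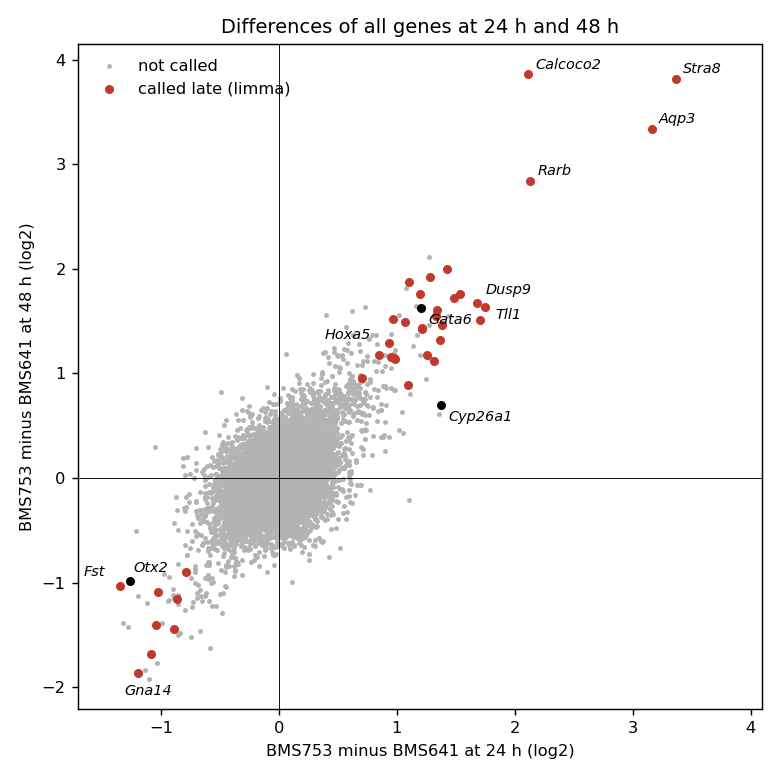
Difference BMS753 minus BMS641 of each of 19938 genes at 24 h (x axis, log2) and 48 h (y axis, log2); red points are the 38 genes called late by limma and black points are Cyp26a1, Gata6 and Otx2, not called. Stra8, Aqp3, Calcoco2 and Rarb stand apart at the upper right, and 8 called genes lie at the lower left.

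Stra8, a gene required to start meiosis, had the largest late difference. With BMS753 its level was 5.36, 7.02, 9.16 and 10.08, and with BMS641 4.87, 4.62, 5.80 and 6.27. The late difference was 3.59 ± 0.52 (12.1-fold, 95% interval 2.45 to 4.73, adjusted p = 0.0242). It was called in 5 of 11 other settings, and not with quantile normalization (adjusted p = 0.0508) or with trend and robust in eBayes (0.103). The BMS641 level of Stra8 was also higher at 48 h than at 6 h, and at 48 h it lay above vehicle replicate 2 (5.17) but below vehicle replicate 1 (8.44). The ATRA arrays were at 10.15 to 10.93, so the 48 h BMS753 array nearly reached them.

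Aqp3 had a late difference of 3.25 ± 0.48 (9.52-fold, adjusted p = 0.0259). Calcoco2, which codes for the autophagy receptor NDP52, was at nearly the same level with both compounds at 2 h and apart at 24 h and 48 h. With BMS753 it was 5.12, 6.10, 7.80 and 9.18, and with BMS641 5.21, 5.29, 5.68 and 5.32. Its late difference was 2.99 ± 0.41 (7.92-fold, adjusted p = 0.0199). With the mean of its probe sets in place of the 1 chosen, the difference was smaller, at 2.26 (limma adjusted p = 0.025). With trend and robust Aqp3 and Calcoco2 also lost their call (adjusted p = 0.103 and 0.0512), and each was called in 6 of 11 other settings. Vehicle replicate 1 was at 8.37 and replicate 2 at 4.86, so the 24 h BMS753 array lay below vehicle replicate 1.

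Rarb had a late difference of 2.49 ± 0.21 (5.60-fold, 95% interval 2.01 to 2.96, adjusted p = 0.00361), the lowest p of the comparison. It was called in 10 of 11 other settings, the most of any called gene. The remaining named higher genes were Cdk15 (1.71 ± 0.25), Tll1 (1.69 ± 0.27), a secreted metalloprotease, Dusp9 (1.68 ± 0.18), Fam81a (1.65 ± 0.21), the nicotinic receptor subunit Chrna5 (1.61 ± 0.25) and Greb1l (1.60 ± 0.18), with adjusted p of 0.00818 to 0.0373. Cdk15 with BMS753 was 4.92, 5.37, 6.40 and 6.57, and with BMS641 4.62, 4.65, 4.97 and 4.57. The vehicle arrays for Cdk15 were at 5.12 and 4.58, both below the late BMS753 arrays. Tll1 was the opposite case: its vehicle arrays were at 7.17 and 4.27, and the late BMS753 arrays, at 6.15 and 6.74, lay between them.

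**Figure D4:**
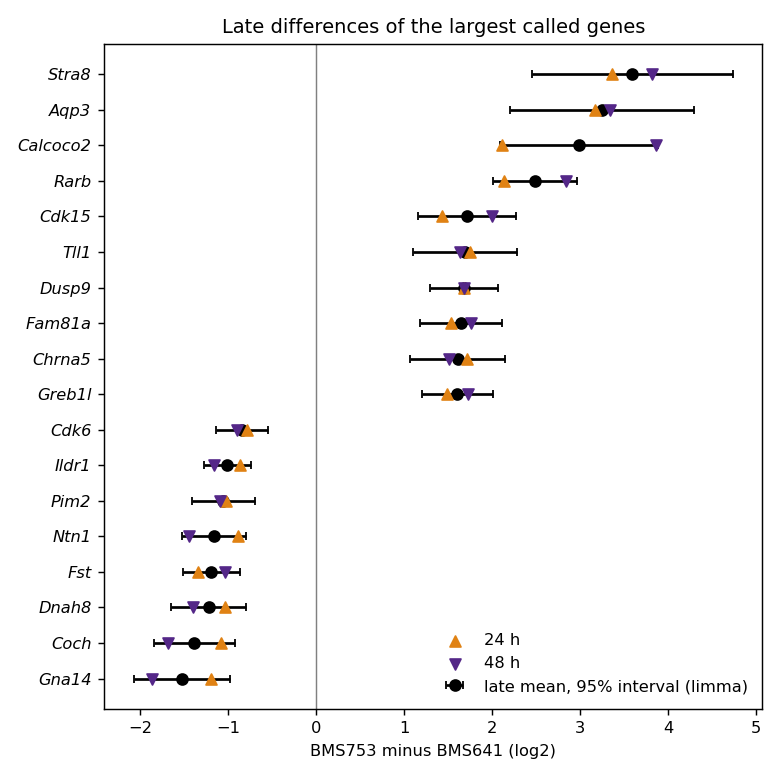
Late difference (x axis, log2) of the 18 named called genes (y axis) as black points with the 95% interval of the limma fit, with the single differences at 24 h (orange) and 48 h (purple). All intervals lie on one side of 0, from 2.45 to 4.73 for Stra8 to -1.14 to -0.55 for Cdk6.

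The 8 genes lower with BMS753 were Gna14 (-1.53 ± 0.25), Coch (-1.38 ± 0.21), the axonemal dynein Dnah8 (-1.22 ± 0.19), Fst (-1.19 ± 0.15), Ntn1 (-1.17 ± 0.16), the kinase gene Pim2 (-1.06 ± 0.16), Ildr1 (-1.01 ± 0.12) and Cdk6 (-0.84 ± 0.14), with adjusted p of 0.0121 to 0.0402. Gna14 codes for a G protein alpha subunit. Its level was 7.32, 7.34, 6.32 and 5.18 with BMS753 and 7.40, 7.32, 7.51 and 7.04 with BMS641, so the compounds were close at 2 h and 6 h and apart at 24 h and 48 h. Vehicle replicate 1, at 5.06, lay below all 8 arrays and replicate 2, at 7.59, above them. Coch stood at 7.85 and 6.86 in the late BMS753 arrays and at 8.93 and 8.55 in the late BMS641 arrays, and its vehicle arrays were at 6.92 and 9.60. The 48 h BMS753 array thus lay just below vehicle replicate 1, and the other 7 arrays of the comparison between the vehicle arrays.

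Fst codes for follistatin, a secreted binder of activin. It was 6.80, 6.91, 5.98 and 6.09 with BMS753 and 7.38, 7.50, 7.33 and 7.13 with BMS641. Every BMS753 array lay below every BMS641 array, and both vehicle arrays, at 7.88 and 8.15, lay above all 8. Fst was 2.29-fold lower late (adjusted p = 0.0135). Ntn1, the guidance cue netrin 1, was 8.99 and 8.94 at 2 h with BMS753 and BMS641 and 7.37 and 8.82 at 48 h. Its vehicle levels were 7.85 and 8.66. Cdk6, a kinase of the G1 phase, was at 7.40 and 7.38 in the late BMS753 arrays and at 8.19 and 8.28 in the late BMS641 arrays, with vehicle at 7.50 and 8.19.

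The other 20 higher genes had late differences from 0.83 (Pbx2) to 1.60 (Islr2). Among them were Tbx3, a T-box factor, at 1.32 ± 0.16, the desmosome gene Dsp at 1.47 ± 0.19, Ddc, which decarboxylates aromatic amino acids, at 1.24 ± 0.19, the neuronal intermediate filament Prph at 1.28 ± 0.14, and Pbx2, a partner of Hox proteins, at 0.83 ± 0.14. Tbx3 was 9.78 and 10.45 in the late BMS753 arrays and 8.57 and 9.03 in the late BMS641 arrays, but 10.75 in vehicle replicate 1 and 7.27 in replicate 2. Ddc was 7.79 and 8.50 with BMS753 and 6.82 and 6.98 with BMS641, and here both vehicle arrays, at 6.81 and 6.64, lay below the BMS753 arrays. Pbx2 was 8.54 and 8.67 against 7.84 and 7.71, with vehicle at 7.83 and 7.74.

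Of the 38 called genes, 31 had the same sign at all 4 times, against 13.7% of all genes. In 31 the 2 h and 6 h differences both had the sign of the late mean, against 20.2%. At both 24 h and 48 h 27 were at least 2-fold apart, against 0.226%. The call used the 24 h and 48 h arrays, so every count of this paragraph that draws on them describes the called genes and supports nothing. The 7 genes with another sign at 2 h or 6 h were Calcoco2, Gna14, Greb1l, Hoxa5, Ntn1, Prph and Rbks. In 11 of the 38 the 4 BMS753 arrays all lay on one side of the 4 BMS641 arrays, against 2.83% of all genes. The difference was larger at 48 h than at 24 h in 30 of the 38 (57.7% of all genes).

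The called genes were compared with the responses to ATRA and BMS961. The ATRA and BMS961 arrays gave part of the spread behind the late calls, so the counts are not independent of the calls. Late ATRA minus vehicle had the same sign for 38 of 38 (62.1% of all genes) and was at least 2-fold that way for 33 (2.79%). Late BMS961 minus vehicle also had the same sign for 38 of 38 (61.2%), 33 of them at least 2-fold (1.58%). These responses share the vehicle arrays with each other. Against vehicle replicate 1 alone the ATRA counts were 36 and 22 (63.4% and 1.64% of all genes), and Fam81a and Gna14 had the other sign. For BMS961 this was not counted. ATRA was at the dose of BMS753 and BMS641, whereas BMS961 was not.

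The vehicle arrays themselves followed the same direction. Vehicle replicate 1 minus replicate 2 had the sign of the late difference for 38 of 38 called genes (51.3% of all genes), and 21 were at least 2-fold apart that way (2.73%). In the other 17 called genes, among them Hoxa5, Fst, Cdk15, Greb1l, Ddc and Pbx2, the vehicle arrays were under 2-fold apart, and their median absolute late difference was 1.19, against 1.49 in the 21. Both late BMS753 arrays lay beyond both vehicle arrays, on the side of the difference, for 28 of the 38. The share over all genes was not counted. The calls used these BMS753 arrays, so the 28 describe the called genes and support nothing. Across all genes the vehicle difference correlated with the compound difference at 0.285, -0.199, 0.244 and 0.260 at 2, 6, 24 and 48 h. In the 12146 probe sets that the annotation does not pair with a gene, this correlation was 0.208 and -0.369 at 2 and 6 h. At 24 h and 48 h it was -0.036 and -0.046. The part of the vehicle difference in these results was not tested. The vehicle arrays did not enter the fits.

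**Figure D5:**
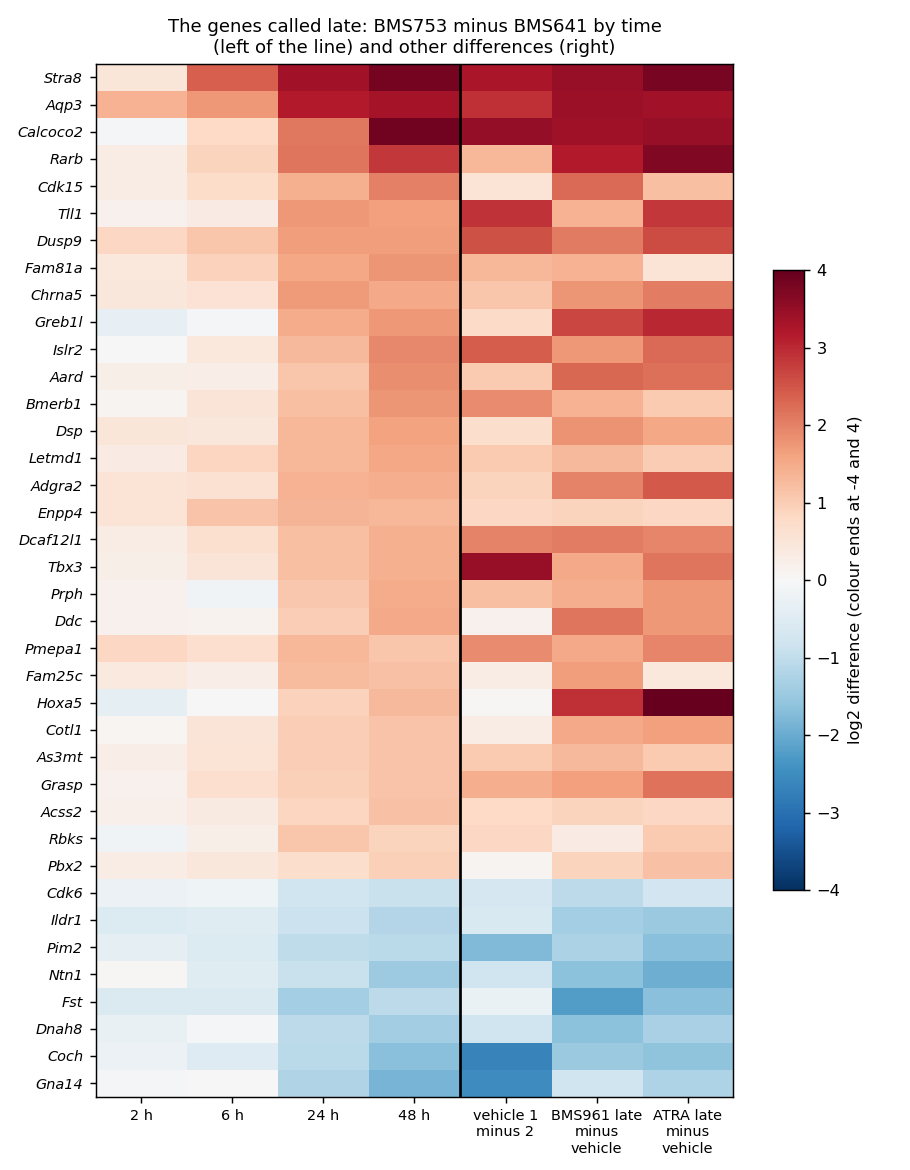
Log2 differences (colour, red above 0 and blue below) of the 38 genes called late (rows, ordered by late difference): BMS753 minus BMS641 at 2, 6, 24 and 48 h left of the line, and vehicle replicate 1 minus 2, late BMS961 minus vehicle and late ATRA minus vehicle right of it. The difference is larger at 48 h than at 24 h in 30 of the 38 rows, and the 3 columns on the right have the sign of the late difference in all 38 rows.

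The early comparison averaged 2 h and 6 h and called 0 genes (0% of 19938; limma, lowest adjusted p = 1 after rounding), with 348 genes at an unadjusted p under 0.05. The largest early differences with 1 sign at both times, none called, were Cyp26a1 (1.88, 95% interval 1.18 to 2.58), Aqp3 (1.56) and Stra8 (1.44) on the higher side. On the lower side they were Otx2 (-0.71), Gabrr3 (-0.63) and Neurog3 (-0.62). Intervals here and elsewhere are not adjusted for the number of genes. Neurog3 was 5.89 and 6.18 with BMS753 and 6.78 and 6.53 with BMS641, and its vehicle arrays were at 5.44 and 7.01, wider apart than the compounds.

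Whether the difference changed between the phases was tested directly, as the late minus the early difference, and 0 genes were called (0% of 19938; limma, lowest adjusted p = 0.426), with 541 at an unadjusted p under 0.05. The late calls are therefore not shown to be particular to the late phase. The largest increases with time were Calcoco2 (2.62), Stra8 (2.15) and Rarb (1.90 with a 95% interval of 1.23 to 2.57), and the largest decreases Gna14 (-1.50), Dnmt3l (-1.32) and Id3 (-1.28). Cyp26a1 went the other way from Rarb, with -0.85 (95% interval -1.83 to 0.14). With the 12 BMS arrays alone, Greb1l (1.81) and Tll1 (1.43) were called here, both with adjusted p = 0.0391.

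Gene lists were read by the role of their members, and the counts refer to late calls, for which the all-gene shares were 0.15% higher and 0.0401% lower and the all-gene median -0.01. The lists were written with earlier results of these data known. Among 12 measured receptors and coregulators 1 was called, Rarb, and the list's median was 0.12. The targeted receptor's own gene, Rara, differed by 0.15 (95% interval -0.30 to 0.60) and Rarg by 0.21 (-0.09 to 0.51). The RXR partners Rxra, Rxrb and Rxrg were at -0.11, 0.03 and -0.44, not called. Nrip1, a corepressor that is itself a retinoid target, was at 0.79 with the interval from 0.42 to 1.15 (adjusted p = 0.127), and its BMS753 level exceeded the BMS641 level at all 4 times, by 0.49, 0.51, 0.87 and 0.71.

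None of 15 genes of retinoid metabolism and binding was called, and their median was -0.09. Dhrs3, which reduces retinaldehyde to retinol, was the highest at 1.70 (95% interval 0.84 to 2.56, adjusted p = 0.162). With BMS753 it was 5.79, 5.76, 6.80 and 7.54, and with BMS641 5.38, 5.52, 5.53 and 5.42, so its difference was larger at 24 h and 48 h than at 2 h and 6 h, as for Rarb and unlike Cyp26a1. Cyp26a1 came next at 1.04 late (adjusted p = 0.407). Stra6, the retinol uptake receptor, was at 0.51. The synthesis enzymes Aldh1a2 and Rdh10 were at -0.20 and -0.15, with intervals of -0.61 to 0.20 and -0.52 to 0.23. The binding protein gene Crabp2 was at -0.12 with an interval of -1.87 to 1.63, too wide to place it.

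Of 19 measured retinoid target genes, 3 were called higher (Rarb, Stra8 and Aqp3), none lower, and the median was 0.51. Another 2, Dhrs3 and Cyp26a1, were over 2-fold higher without a call. Meis1 and Meis2, homeobox partners of Hox proteins, were at 0.84 and 0.76 and the pioneer factor Foxa1 at 0.76, not called. The lower end held Tgm2 (-0.26), Hoxb1 (-0.20) and Gbx2 (-0.19), whose intervals all include 0.

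In the Hox clusters 1 of 37 measured genes was called, Hoxa5, which patterns the axis at cervical levels. It was 4.86, 5.52, 5.95 and 6.64 with BMS753 and 5.25, 5.50, 5.01 and 5.35 with BMS641, with vehicle at 5.57 and 5.52. The late BMS753 arrays stood above all the others of the comparison and above both vehicle arrays. Its late difference was 1.11 ± 0.18 (2.16-fold, adjusted p = 0.0419), and it was called in 4 of 11 other settings. The other 9 genes of cluster A lay between -0.06 and 0.21, the 9 of cluster B between -0.20 and 0.50 and the 18 of clusters C and D between -0.31 and 0.21. With ATRA Hoxa5 was at 7.84 at 2 h and 10.47 at 48 h, above every BMS753 value.

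Among 28 pluripotency genes Tbx3 was called higher and none lower, with a median of -0.01. Nanog was at 0.42 (95% interval 0.16 to 0.67, adjusted p = 0.317) and Sox2 at -0.03. The 3 members over 2-fold lower were Dnmt3l (-1.49, adjusted p = 0.0854), a cofactor of DNA methyltransferases, Otx2 (-1.12) and the methyltransferase Dnmt3b (-1.01), not called. Dnmt3l was 10.46, 10.12, 8.98 and 7.84 with BMS753 and 10.54, 10.37, 10.12 and 9.68 with BMS641, with vehicle at 9.03 and 10.49. Its 48 h level was below its 2 h level with both compounds, and with BMS753 it was also below vehicle replicate 1.

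Of 22 primitive and parietal endoderm genes, Fst was called lower and none higher, with a median of 0.09. Gata6, a transcription factor of primitive endoderm, had the largest positive difference of the list without a call, 1.42 (95% interval 0.38 to 2.45, adjusted p = 0.481). It was 6.35, 6.60, 7.42 and 8.03 with BMS753 and 6.05, 6.16, 6.21 and 6.40 with BMS641, with vehicle at 7.08 and 6.03. Gata4, Sox7 and Sox17 were at 0.19, 0.53 and 0.04. Wide intervals limit what can be said of Dab2 (0.19, -1.68 to 2.06) and of the laminin gene Lama1 (0.23, -1.33 to 1.79) in the matrix list, where 0 of 22 were called.

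Among 15 MYC, cyclin and growth genes Cdk6 was called lower. Mycn was at -1.16 with an interval of -2.58 to 0.26. The remaining 16 lists, on visceral endoderm, neural, mesoderm, trophoblast and fibroblast genes, on NODAL, WNT and FGF signalling, and on replication, mitosis, growth arrest, cholesterol, hypoxia, stress, interferon and ribosomal genes, had no called member. The narrowest were the ribosomal genes, between -0.05 and 0.06, the mitosis genes, between -0.05 and 0.18, and the replication genes, between -0.12 and 0.15. The medians furthest from 0 between the vehicle arrays were those of the cholesterol genes, -1.06 against -0.01 between the compounds, and of the hypoxia and glycolysis genes, -0.79 against -0.09. In the hypoxia and glycolysis list the entry Gpi1 was matched by name to another gene, Pigq, which is among its measured members. For the neural, interferon and NODAL lists the median between the vehicle arrays was nearer to 0, at 0.03, -0.01 and 0.03 against -0.10, -0.13 and 0.05 between the compounds. Lefty2, an inhibitor of NODAL, was the lowest of the signalling lists at -1.13 (adjusted p = 0.361), and Sox11, a neural SOX factor, the lowest of the neural list at -1.16 (adjusted p = 0.295).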

How the data were processed

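Affymetrix whole-transcript arrays were hybridised with biotin-labelled target made from total F9 RNA, per the labels. The authors deposited log2 levels for 35556 probe sets on 18 arrays. The submitters' processing notes name RMA and Affymetrix Expression Console 1.1. Precision is limited by the number of arrays, and no scan date or detection call was used. Values were used as deposited. A gene was 1 probe set with 1 listed symbol (21789 had one, 1621 several, 12146 none); for 999 genes with several, the one with the highest mean was taken, leaving 19938 genes and no filter on dim ones.

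The members, comparisons and 26 gene lists were chosen with earlier results of these data known. Of 444 list genes 415 were measured, counting Gpi1, which was matched to another gene, Pigq. The labels gave each array's agent and time. In limma 3.58.1 (R 4.3.3), the paired test used 8 arrays with time as a block (3 residual degrees of freedom, prior 4.67). Early, late and their difference came from a fit of agent within phase, with time blocked, to the 16 retinoid arrays (6 residual, prior 4.92). A gene was called where its Benjamini-Hochberg adjusted p over all genes was under 0.05. The fits were run on simulated data with independent noise and set changes, a check of the code and not of the error rate in these data. Named genes were, for the paired test, the 5 largest in each direction with at least 0.5 and 1 sign at 4 of 4 times, since none was called; for late, the 10 largest called in each direction; for early and for late minus early, the 3 largest, since none was called; and for single times the 3 highest and 3 lowest. List members and called genes could be named besides. Promoter sequences came from RefSeq (GRCm38.p6). Tables and figures were made in Python 3.11.15 (matplotlib 3.10.9, numpy 2.4.6, pandas 2.3.3). Settings tried were quantile normalization, centring, a filter on dim genes, mean probe sets, eBayes with trend and robust, other array sets, no time block, leaving out each time, and 3-fold.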

Additional observations from a re-analysis of the deposited data

Results flagged for a closer look

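Among the named genes, Greb1l and Gabrr3 had one sign at both early times and the opposite sign at both late times. For Greb1l, BMS753 minus BMS641 was -0.34 and -0.07 at 2 h and 6 h and 1.49 and 1.72 at 24 h and 48 h, so the late minus early difference was 1.81 ± 0.26 (limma adjusted p = 0.426, not called). With BMS753 its level was 4.95, 5.45, 6.77 and 7.31, and with BMS641 5.29, 5.52, 5.28 and 5.59. Vehicle was at 5.78 and 5.03.

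For Gabrr3 the differences were -0.55 and -0.70 early and 0.28 and 0.35 late, and the late minus early difference was 0.94 ± 0.16 (limma adjusted p = 0.595, not called). Its levels, 3.55 to 4.27 over the 8 arrays, were near the low end of the array's range, where the lowest value was 2.05. Among the 12146 probe sets without a listed gene, none was called in any of the 4 comparisons (limma, lowest adjusted p = 0.753).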

How the results depend on the processing

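The late call set depended most on which arrays entered the fit. It held 38 genes, 170 with the 12 BMS arrays (126 higher, 44 lower, 38 shared with the main set) and 63 with the 8 arrays of the comparison (33 shared), and 0 to 6 when a pair was left out: 6 without 2 h, 6 without 6 h (each time As3mt, Dusp9, Greb1l, Letmd1, Prph and Rarb), 1 without 24 h (Rarb) and 0 without 48 h. Leaving out a pair also leaves fewer arrays. Quantile normalization gave 30 calls, 20 higher and 10 lower (28 shared), a more even split than 30 and 8. The other settings gave 34 to 56. The 56 came with trend and robust and shared 35 with the main set, without Stra8, Aqp3 and Calcoco2, the 3 genes with the largest late differences. The paired test over 4 times called 0 genes, but 8 with arrays centred on their median, 31 with trend and robust, 13 with the 12 BMS arrays and 30 without the 2 h pair (0 without any other pair). The 8 were Aqp3, Cyp26a1, Dusp9, Enpp4, Kit, Notch4, Otx2 and Pmepa1. Late minus early called 2 genes with the 12 BMS arrays and 0 in every other setting run, and early called 0 in all. At 3-fold the single times held 1, 4, 7 and 25 genes at 2, 6, 24 and 48 h, against 8, 31, 57 and 136 at 2-fold. Quantile normalization gave 13 at 2 h, and the filter on dim genes 19 at 6 h. The causes were not tested. No gene named by the rule for the 4 fitted comparisons changed direction in a setting run for it, nor did the 3 highest and 3 lowest genes of each time with quantile normalization; other list members were not followed. The paired test has time as its block, and without it 0 genes were called too.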
